A study of Rattus norvegicus with 24 samples.

Results

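Gene expression was compared in the livers of 12 male Sprague Dawley rats, 8 weeks old at the start, which were killed 24 h after 1 dose. The 6 ANIT rats had received 50 mg/kg of ANIT in corn oil by stomach tube and the 6 vehicle rats corn oil alone, both at 10 ml/kg. These 12 rats are all those labelled for that time among the 24 arrays of the study, which also has 6 ANIT and 6 vehicle rats of 120 h, and each rat gave 1 array of liver total RNA. Rats are numbered 1 to 6 within a group in the order of their deposition, as names only. Rats of both groups were fasted for about 18 h before necropsy and were injected with 100 mg/kg of bromodeoxyuridine, a thymidine analogue that marks DNA synthesis, about 2 h before it. The series names 24 h as the time of peak injury and the comparison asks which genes differ there. Values are log2 expression levels of probe sets as deposited, so a difference of 1 is a 2-fold change of signal, and 13438 genes were tested, each through its brightest probe set.

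ANIT, alpha-naphthylisothiocyanate, is a hepatotoxic chemical that is conjugated to glutathione in hepatocytes and passed into bile, where it injures the lining of bile ducts. Bile flow then falls and bile acids build up in the liver. Hepatocytes are also the body's main makers of plasma proteins, which pass through the endoplasmic reticulum (ER), and they hold the enzymes of sterol, bile acid and drug metabolism. The oil dose and the fast apply to both groups, so no rat here is an untreated, fed control. Defining hepatocyte markers were high, as in liver: albumin (Alb) lay between 13.19 and 13.31 in vehicle and between 12.96 and 13.21 in ANIT rats, near the upper end of the table (13.50). In whole tissue, fewer cells of a type and less RNA per cell cannot be told apart.

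Arrays of the same group were not alike. The SD over all probe sets of an array ran from 1.84 to 2.08 in vehicle and from 1.93 to 2.06 in ANIT rats, and the 3 narrowest arrays, with SDs up to 1.90, were all of vehicle. The level of the spiked hybridisation controls, labelled transcripts added to each hybridisation, averaged 11.16 ± 0.38 (SD) over the 6 vehicle arrays and 10.81 ± 0.25 over the 6 ANIT arrays (exact permutation p = 0.091, adjusted p = 0.14 over 6 array measures, two-sided). The log2 ratio of the 3' to the 5' control probe sets of beta-actin, a sign of RNA integrity, was 2.84 ± 0.05 in vehicle and 3.12 ± 0.07 in ANIT rats, with no overlap (exact permutation p = 0.0022, the smallest that 6 against 6 allow, adjusted p = 0.013). The same ratio of GAPDH was 1.71 ± 0.08 in vehicle and 1.62 ± 0.04 in ANIT rats (exact permutation p = 0.048, adjusted p = 0.095), and that of hexokinase was -0.38 and -0.24 (exact permutation p = 0.38, adjusted p = 0.38). Actb, the gene behind the first of these ratios, itself rose by 0.61 ± 0.09 in ANIT rats, so that RNA integrity and the rise of Actb cannot be told apart in the beta-actin ratio. Counts are given for the values as deposited and, for many lists, also with the control level, with the beta-actin ratio or without the 3 narrowest arrays. The part of these array measures in the results was not tested further.

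Of the 13438 genes, 2451 (18.2%) were called, that is, reached a Benjamini-Hochberg adjusted p under 0.05 in limma. Of these, 1738 (12.9% of all genes) were higher in ANIT rats and 713 (5.31%) lower. Changes of at least 2-fold were found for 206 of the higher and 87 of the lower genes, and changes of at least 4-fold for 26 and 9. The median absolute log2 change of a called gene was 0.56, and the median change of all genes was 0.00458. Once the control level entered the fit, 2700 genes (20.1%) passed, 1293 (9.62%) higher and 1407 (10.5%) lower. Of the deposited calls, 601 were lost, 523 of them higher, and of the 850 gained, 772 were lower. Higher genes thus made up 70.9% of the deposited calls, 47.9% of those with the control level and 81.2% of those on arrays brought to the same median. The number called was 1248 without the 3 narrowest vehicle arrays, and the beta-actin ratio as a covariate left 907. In 745 genes (5.54%) every ANIT rat lay above every vehicle rat, and in 312 (2.32%) every ANIT rat lay below.

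**Figure D1:**
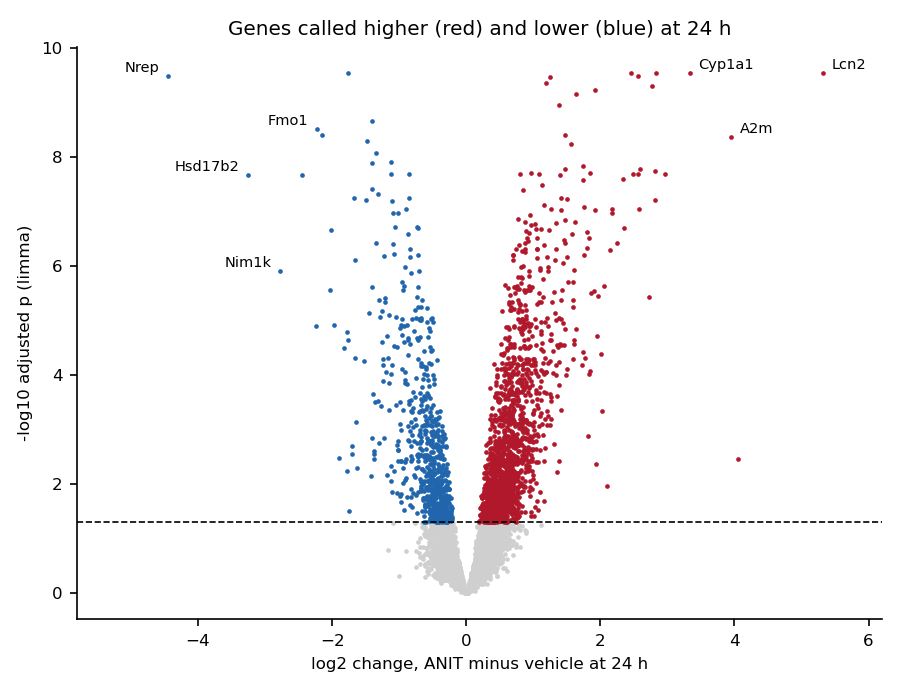
Change of each of the 13438 genes at 24 h (x axis, log2, ANIT minus vehicle, 6 rats a group) against the negative log10 of its adjusted p (y axis, limma). Dark red points are the 1738 genes called higher, blue points the 713 called lower, and the dashed line marks an adjusted p of 0.05. Lcn2 and Nrep lie farthest out on either side.

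Among called genes whose groups did not overlap, Lcn2, A2m and Cyp1a1 had the 3 largest rises. Fam111a, described further below, rose by 4.05 with overlap. Lcn2, an iron-binding acute phase protein that sequesters bacterial siderophores, had values of 5.03, 6.06 and 7.48 (lowest, median and highest rat) in vehicle and 9.96, 11.56 and 11.85 in ANIT rats. The groups were separated by more than 2 log2 units, although Lcn2 was itself uneven among vehicle rats, and it rose 40.1-fold (5.33 ± 0.36, log2 change ± SE, adjusted p = 2.82e-10). A2m, a broad protease inhibitor of rat plasma, ran from 6.19 to 7.59 (median 7.01) in vehicle and from 10.16 to 11.46 (median 10.82) in ANIT rats. Cyp1a1, the monooxygenase switched on by the aryl hydrocarbon receptor, was low in vehicle rats, between 3.83 and 4.39. In ANIT rats Cyp1a1 lay between 6.84 and 8.25, with the highest value in ANIT rat 2, the rat with the lowest Lcn2. Further down, Il1r1, the signalling receptor for interleukin-1, rose by 2.57 ± 0.26 and Wfdc21, a small whey acidic protein, by 2.45 ± 0.16. The 2 probe sets of Il1r1 gave unlike changes, 0.46 and 2.57, and the value stated is that of the brightest.

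The other 15 of the 20 largest rises without overlap fell into a few known activities. Sqle (2.83 ± 0.19), Idi1 (2.81 ± 0.25) and Lss (2.18 ± 0.22) encode sterol synthesis enzymes, and Fasn (2.76 ± 0.20) is the fatty acid synthase. Asns (2.60 ± 0.23) and Psat1 (2.25 ± 0.25) make asparagine and serine, and Creld2 (2.57 ± 0.18) is a small ER protein that assists folding. Slc10a2 (2.73 ± 0.35), the sodium-driven bile acid carrier of the ileum and of bile duct cells, and Nr0b2 (2.35 ± 0.25), the repressor SHP, belong to bile acid handling. Fabp5 (2.56 ± 0.23) binds fatty acids, B4galt5 (2.34 ± 0.22) makes lactosylceramide and Tubb6 (2.49 ± 0.23) is a beta-tubulin. Amigo3 (2.97 ± 0.27) is a cell adhesion protein, Fer1l5 (2.82 ± 0.28) a ferlin and Spsb4 (2.18 ± 0.22) an adaptor of ubiquitin ligases. Among these genes every ANIT rat exceeded every vehicle rat, which the rule for naming them required. Other probe sets of Tubb6, B4galt5 and Lss gave smaller changes, down to 0.18, -0.06 and 1.09.

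Among the falls, Nrep, a small cytoplasmic protein, came first. It ran from 9.32 to 10.76 (median 10.44) in vehicle and from 5.28 to 6.35 (median 5.83) in ANIT rats, a 21.8-fold fall (-4.45 ± 0.31, adjusted p = 3.17e-10). Hsd17b2, which oxidises estradiol and testosterone to weaker steroids, had values of 9.06, 9.74 and 10.12 in vehicle against 5.87, 6.18 and 7.91 in ANIT rats (change -3.25 ± 0.30). In neither gene did the groups overlap, and for Nrep the gap between them was wider than the spread within either. The kinase gene Nim1k changed by -2.78 ± 0.33. Oxidising and steroid enzymes made up a good part of the other 17: Cyp8b1 (-2.45 ± 0.23), Cyp17a1 (-2.24 ± 0.32), Fmo1 (-2.22 ± 0.18), the superoxide-forming oxidase Nox4 (-2.03 ± 0.26), the epoxide hydrolase Ephx2 (-1.76 ± 0.26) and the aldo-keto reductase Akr1c1 (-1.53 ± 0.24). Lipid and glucose enzymes were Acot1 (-1.90 ± 0.44), which cleaves acyl-CoA, Hacl1 (-1.68 ± 0.16), a peroxisomal lyase, and G6pc1 (-1.66 ± 0.19), the glucose-6-phosphatase that releases glucose to blood. Serpina6 (-2.16 ± 0.18) carries corticosteroids in plasma, Car3 (-1.98 ± 0.28) is a carbonic anhydrase and Coq8a (-1.77 ± 0.12) supports coenzyme Q synthesis. The small GTPase Rab30, the sulfate carrier Slc13a4, the collagen-like Colq, the mitochondrial carrier Slc25a30 and Ifgga2l1 completed the 20, with changes between -2.02 and -1.65. These 20 falls were the largest among called genes without overlap between the groups. Called falls with overlap, such as Cyp7a1 (-1.78) and Igfbp2 (-1.70), exceeded some of them. Acot1 (adjusted p = 0.186) lost its call with the beta-actin ratio.

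**Figure D2:**
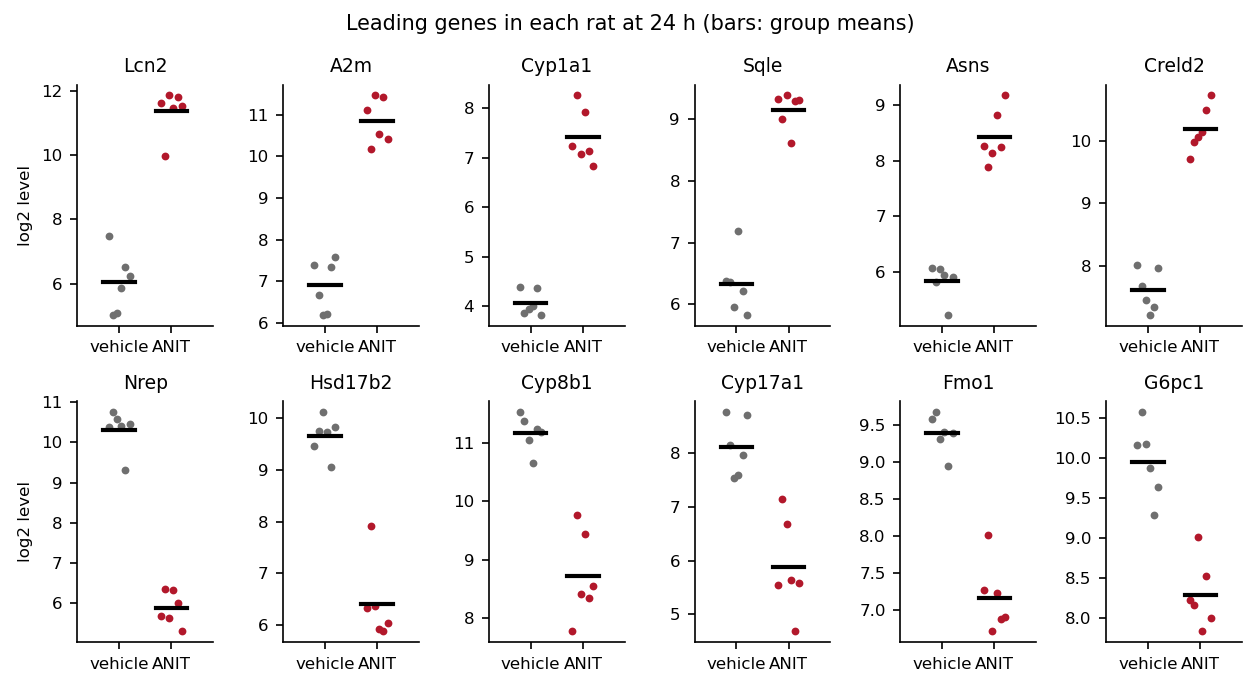
Log2 level at 24 h of 12 of the 40 leading genes, which had the largest called changes without overlap between the groups. Each point is 1 rat (6 vehicle rats in grey, 6 ANIT rats in red), and black bars are group means. In each panel the 2 groups do not overlap, as the naming rule required, and Lcn2 varies among vehicle rats by more than 2 log2 units.

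Genes of the secretory pathway rose at each step from entry into the ER to export toward the Golgi. Of 30 measured genes for ER translocation and signal peptide handling, 26 rose and 0 fell, against 12.9% and 5.31% of all genes, with a median change of 0.79. Of 29 ER chaperones and folding enzymes 25 rose and 0 fell (median 0.77), and all 29 had a positive change. Of 34 ER to Golgi transport genes 27 rose and 0 fell (median 0.66). Of 19 genes that dispose of misfolded ER proteins 14 rose and 0 fell (median 0.53). With the control level in the model the numbers that rose were 25, 24, 26 and 14 in the same order. For ER-associated degradation the number was 7 with the beta-actin ratio and 6 without the 3 narrowest vehicle arrays. In each of these 4 lists the median level of every ANIT rat exceeded that of every vehicle rat.

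The rises among translocation genes included channel, peptidase and glycosylation subunits. The channel subunits Sec61a1, Sec61b and Sec61g rose by 1.16 ± 0.12, 0.87 ± 0.12 and 0.96 ± 0.09, and the signal peptidase subunits Sec11a and Sec11c by 1.14 ± 0.11 and 1.44 ± 0.17. Sec11c lay between 7.55 and 8.52 in vehicle and between 8.96 and 9.98 in ANIT rats. Ssr2, of the translocon-associated complex, rose by 1.31 ± 0.17, and the signal recognition particle genes Srp54a and Srp19 by 0.93 ± 0.13 and 0.87 ± 0.13. The oligosaccharyl transferase subunits Rpn1, Ddost and Dad1, which attach sugar chains, rose by 0.79 ± 0.11, 0.70 ± 0.13 and 0.82 ± 0.11. Tram1 and Stt3b had values of 0.13 ± 0.07 and 0.08 ± 0.06 and did not pass the test. Ddost (adjusted p = 0.102) lost its call with the beta-actin ratio.

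Among the chaperones, Hspa5, the ER heat shock protein BiP that holds unfolded chains, had values of 10.91, 10.97 and 11.26 in vehicle and 11.68, 11.79 and 12.17 in ANIT rats. The groups did not overlap, and Hspa5 rose by 0.82 ± 0.10 (adjusted p = 1.55e-06). Creld2, which ran from 7.22 to 8.02 in vehicle and from 9.71 to 10.72 in ANIT rats, changed most. Hyou1, the exchange factor of Hspa5, rose by 1.92 ± 0.14, Sdf2l1 by 1.92 ± 0.19 and the secreted protein Manf by 1.47 ± 0.13. Hsp90b1, the ER form of Hsp90, rose by 0.94 ± 0.12, and the disulfide isomerases Pdia4, Pdia6, Pdia3 and P4hb by 0.86 ± 0.13, 0.77 ± 0.09, 0.69 ± 0.09 and 0.29 ± 0.06. The lectin chaperones of glycoproteins, Calr and Canx, rose less, by 0.39 ± 0.07 and 0.30 ± 0.07. Canx (adjusted p = 0.0765) lost its call without the 3 narrowest vehicle arrays, and Canx (adjusted p = 0.0576) and P4hb (0.154) with the beta-actin ratio.

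Promoter sequences were read for the chaperones because several are textbook targets of the ER stress element, CCAAT and CCACG with 9 bases between. RefSeq windows (GRCr8, 250 bases before to 50 after the start) were found for 25 of the 29 genes, and the element, on either strand, in 7 of them. Over all tested genes with a window it was found in 17 of 11089 (0.153%), and over all 33469 windows in 0.0657%. The stretches that hold it are shown 5′ to 3′ on the gene's strand, with the end boxes of the element in capitals. Where the element lies on the opposite strand, the capitals read CGTGG and ATTGG.
Creld2 (chr7:121789219-121789277, plus strand): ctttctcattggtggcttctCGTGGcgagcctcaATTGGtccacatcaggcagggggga
Hsp90b1 (chr7:23012327-23012489, minus strand): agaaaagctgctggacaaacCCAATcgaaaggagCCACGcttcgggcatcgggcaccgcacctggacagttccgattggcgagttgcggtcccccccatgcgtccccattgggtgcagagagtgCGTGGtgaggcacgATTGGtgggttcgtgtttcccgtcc
Hspa5 (chr3:38452953-38453011, plus strand): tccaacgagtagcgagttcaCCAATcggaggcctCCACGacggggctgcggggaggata
Dnajc3 (chr15:102432514-102432572, plus strand): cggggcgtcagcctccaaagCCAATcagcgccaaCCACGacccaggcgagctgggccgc
Ero1b (chr17:92941438-92941496, plus strand): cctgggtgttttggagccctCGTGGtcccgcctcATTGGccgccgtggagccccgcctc
Calr (chr19:40213117-40213173, plus strand): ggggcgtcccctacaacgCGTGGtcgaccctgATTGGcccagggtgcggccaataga
Canx (chr10:35158049-35158107, minus strand): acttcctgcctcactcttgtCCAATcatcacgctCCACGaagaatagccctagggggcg
In Hspa5 the element began 43 bases before the annotated start and in Creld2 145 before it. The stretch of Hsp90b1 holds 2 elements, the first on the gene's strand and the second on the other. Of the 17 tested genes with the element, 7 belong to the chaperone list, of which 25 of 29 rose with or without it. Against 12.9% and 5.31% of all genes, 8 of the 17 rose and 0 fell. These were Creld2, Hsp90b1, Hspa5, Dnajc3, Calr and Canx of the chaperone list, Zfand2a (1.11 ± 0.17), a partner of the proteasome, and Hnrnpa3 (0.25 ± 0.07), an RNA-binding protein, the last 2 named after their values were seen. Ero1b (0.41 ± 0.17), an oxidase of the ER, and Xbp1 (0.21 ± 0.18), a transcription factor of the unfolded protein response, carry it and did not pass the test. Chaperones without a match, such as Hyou1, rose as well. The CCAAT box alone is common, in 37.5% of all windows. A match is a description of these letters and no measure of binding. Hnrnpa3 (adjusted p = 0.158) lost its call without the 3 narrowest vehicle arrays, and Hnrnpa3 (adjusted p = 0.227) with the beta-actin ratio.

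Transport genes beyond the ER rose over the coats of both directions. Sec23b, of the coat that buds from the ER, ran from 7.14 to 8.21 in vehicle and from 9.31 to 9.91 in ANIT rats, a change of 1.85 ± 0.17. Sec13 and Sec24d of the same coat rose by 0.94 ± 0.11 and 0.83 ± 0.09, and the cargo receptors Tmed3 and Surf4 by 1.74 ± 0.27 and 0.88 ± 0.10. Subunits of the coat that returns material to the ER, Cope, Copg1 and Copa, rose by 0.83 ± 0.13, 0.82 ± 0.10 and 0.63 ± 0.08. Of the retrieval receptors, Kdelr2 rose by 0.85 ± 0.08, while Kdelr1 had a value of 0.20 ± 0.08, not called. On the disposal side, the ubiquitin-conjugating enzyme Ube2g2 rose by 1.11 ± 0.15, the ligase Syvn1 by 0.91 ± 0.10 and the retrotranslocation factor Selenos by 0.97 ± 0.17.

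Sensors and factors of the unfolded protein response moved unevenly. Of 13, 7 rose and 1 fell, and the number that rose was 4 without the 3 narrowest vehicle arrays and 4 with the beta-actin ratio. Eif2ak3, the kinase PERK that slows translation, rose by 0.93 ± 0.16, and Atf4, the factor whose translation it favours, by 1.03 ± 0.11. Bhlha15, a factor of secretory cells, rose by 1.74 ± 0.15. Ddit3, the factor CHOP, had a value of 0.33 ± 0.16, not called, while Creb3l3 fell by 0.42 ± 0.10. Creb3l3 (adjusted p = 0.120) lost its call with the beta-actin ratio.

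Amino acid supply genes rose with them. Of 30 ATF4 targets and amino acid response genes 13 rose and 0 fell (median 0.40), and of 17 cytosolic tRNA synthetases, which charge tRNA with amino acids, 14 rose and 0 fell (median 0.80). Asns lay between 5.22 and 6.06 in vehicle and between 7.89 and 9.18 in ANIT rats, with no overlap. Psph, the last enzyme of serine synthesis, rose by 1.47 ± 0.21, the arginine and lysine carrier Slc7a1 by 1.61 ± 0.24 and the cystine carrier Slc7a11 by 1.08 ± 0.26. Atf3, a stress factor, rose by 2.00 ± 0.31 with some overlap, from 4.44 to 5.70 in vehicle and from 5.50 to 7.63 in ANIT rats. Chac1 and Sesn2, also known ATF4 targets, had values of 0.43 ± 0.22 and -0.16 ± 0.12 and were not called. The synthetase changes ran from 0.32 to 1.83, the latter for Wars1, the tryptophan enzyme. The carriers of amino acids gave 8 rises among 23, and 5 rises without the 3 narrowest vehicle arrays or with the beta-actin ratio.

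Protein turnover and ribosome assembly genes rose by small amounts in many members. Of 32 proteasome subunits 27 rose and 0 fell, and all 32 had a positive change, between 0.12 and 0.83 (median 0.51). Psmd14, the deubiquitinase of the lid, rose by 0.83 ± 0.12, the base ATPase Psmc5 by 0.78 ± 0.17 and the catalytic core subunit Psmb5 by 0.57 ± 0.11. The number of subunits that rose was 24 with the control level, 12 without the 3 narrowest vehicle arrays and 4 with the beta-actin ratio. Of 34 ribosome biogenesis genes 19 rose and 0 fell (median 0.41), among them Fbl, the methyltransferase of ribosomal RNA (0.79 ± 0.17), and Nop58 of the same particle (0.82 ± 0.18). That number was 1 without the 3 narrowest vehicle arrays and 3 with the beta-actin ratio. Of 36 cytosolic ribosomal proteins 13 rose (median 0.23). Leaving out 1 array moved that number to 7 (vehicle rat 2), 8 (vehicle rat 3), 8 (ANIT rat 3) or 7 (ANIT rat 6), and it was 7 with the control level, 1 without the 3 narrowest vehicle arrays and 0 with the beta-actin ratio. Fbl (adjusted p = 0.122), Nop58 (0.0925) and Psmc5 (0.0919) lost their calls without the 3 narrowest vehicle arrays, and Fbl (adjusted p = 0.146), Nop58 (0.0867), Psmb5 (0.0716) and Psmc5 (0.268) with the beta-actin ratio.

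**Figure D3:**
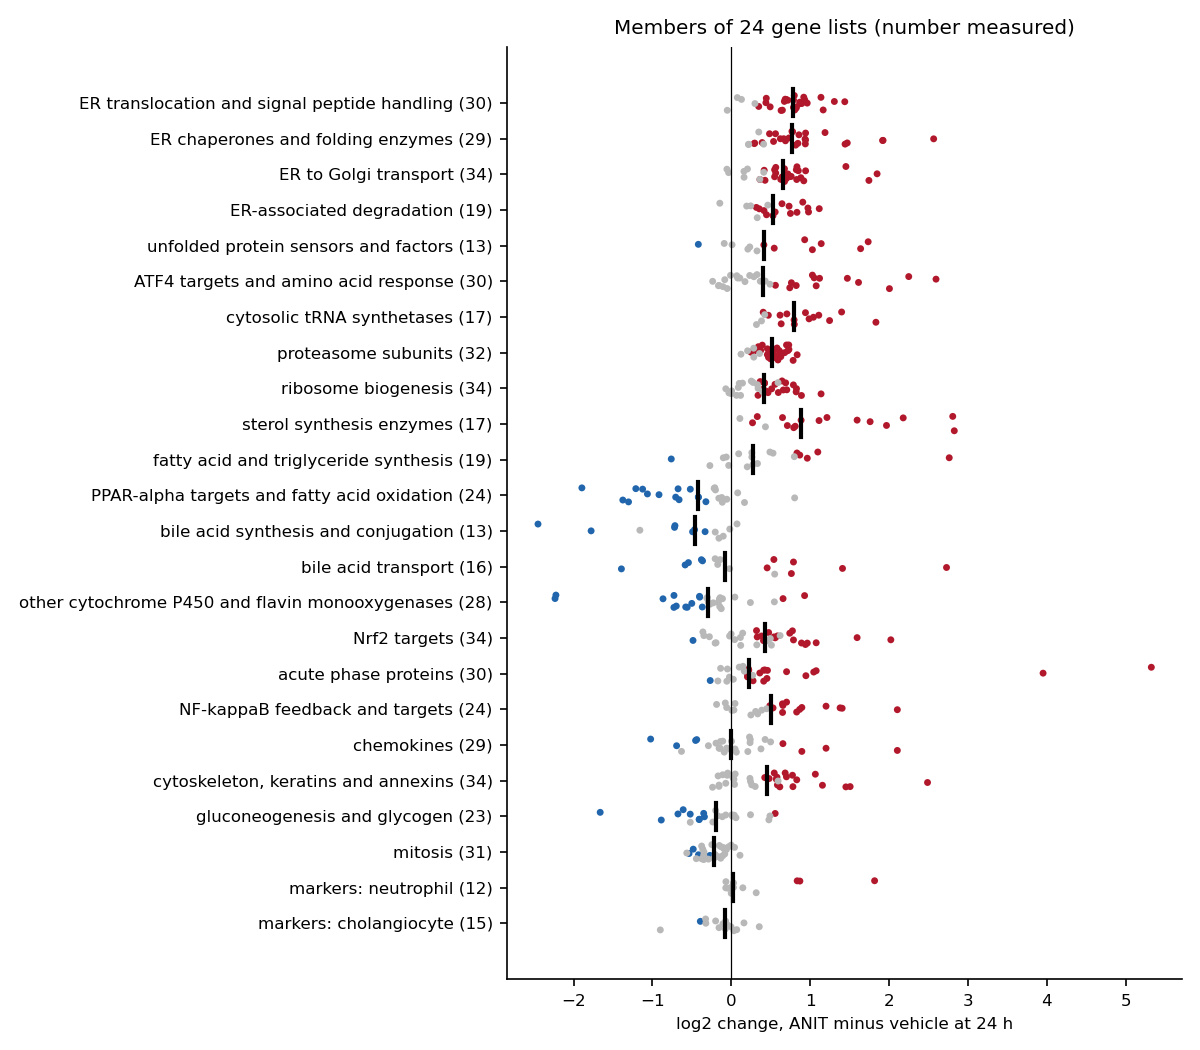
Log2 change (ANIT minus vehicle, x axis) of each measured member of 24 gene lists (rows), 6 rats a group. Red and blue points passed the test in the higher and lower direction, grey points did not, and the black bar is the list median. The lists of the secretory pathway, tRNA synthetases, proteasome and sterol synthesis lie wholly or mostly to the right of 0. Those of fatty acid oxidation and bile acid synthesis lie mostly to the left.

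Sterol synthesis enzymes rose along nearly the whole path from acetyl-CoA to cholesterol. Of 17 measured, 15 rose and 0 fell (median 0.88), and Tm7sf2 and Ebp did not pass the test (0.43 ± 0.19 and 0.11 ± 0.13). Sqle, the epoxidase that commits squalene to sterols, had values of 5.83, 6.29 and 7.19 in vehicle and 8.61, 9.30 and 9.38 in ANIT rats. Over the list as a whole the vehicle rats were uneven too: the median level of vehicle rat 4 stood 0.50 above the vehicle mean, while the ANIT rats stood 0.80 to 1.24 above it. With the beta-actin ratio 8 of the enzymes rose, and with both covariates 9. Among regulators, Insig1, the ER anchor that holds the sterol sensor back, rose by 1.47 ± 0.15 and Srebf2, the factor that drives the enzymes, by 0.99 ± 0.18. Insig2 fell by 0.68 ± 0.10 and the sterol exporter Abcg5 by 0.98 ± 0.18. Neither form of the sterol regulatory element searched, TCACCCCAC or TCACCCCA, was found in the windows of the 14 enzymes with one, against 1.37% of all windows for the shorter form, which includes the longer. Srebf2 (adjusted p = 0.241) lost its call with the beta-actin ratio.

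Lipogenic enzymes rose in part and fatty acid oxidation genes fell in part. Fasn ran from 7.01 to 8.60 in vehicle and from 9.91 to 10.97 in ANIT rats, and Acaca and Acly, which supply malonyl-CoA and acetyl-CoA, rose by 1.10 ± 0.13 and 0.83 ± 0.12. Of 19 genes of fatty acid and triglyceride synthesis 5 rose (3 with the beta-actin ratio), while the desaturase Fads2 fell (-0.76 ± 0.20). The desaturase Scd had a value of 0.80 ± 0.37, not called. Of 24 PPAR-alpha targets and fatty acid oxidation genes 14 fell (median -0.42). Cpt1a, which admits long-chain fatty acids to mitochondria, fell from between 11.49 and 12.20 in vehicle to between 10.79 and 11.34 in ANIT rats (-1.06 ± 0.11). The peroxisomal enzyme Ehhadh fell as well (-1.30 ± 0.17), as did Pdk4, which spares pyruvate in fasting (-1.38 ± 0.32), and the lipase inhibitor Angptl4 (-0.92 ± 0.16). Ppara itself had a value of 0.08 ± 0.12, not called. With the control level 18 fell and with the beta-actin ratio 9. Of 19 peroxisome genes 6 fell, with Pex11a, which drives peroxisome division, changed most (-1.41 ± 0.18). Fads2 (adjusted p = 0.0775) and Pdk4 (0.0559) lost their calls with the beta-actin ratio.

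Bile acid genes split by function. Of 13 genes of synthesis and conjugation 7 fell and 0 rose. Cyp8b1, which sets the cholic acid share, lay between 10.66 and 11.53 in vehicle and between 7.78 and 9.77 in ANIT rats. Cyp7a1, the rate-limiting enzyme, was uneven in both groups and overlapped, from 6.64 to 9.10 in vehicle and from 5.13 to 7.33 in ANIT rats (-1.78 ± 0.44, adjusted p = 0.00569). The number that fell was 4 without the 3 narrowest vehicle arrays and with the beta-actin ratio. Of 16 transport genes 6 rose and 5 fell. Slc10a2 had values of 5.02, 5.70 and 6.67 in vehicle and 7.79, 8.48 and 9.06 in ANIT rats. Rises were also found for the export pump Abcg2 (1.41 ± 0.20) and for Abcc3, which returns conjugates to blood (0.54 ± 0.15), and falls for the uptake carriers Slc10a1, Slco1b2 and Slco1a4 (-0.54 ± 0.08, -0.59 ± 0.10 and -1.39 ± 0.25). Without the 3 narrowest vehicle arrays or with the beta-actin ratio 3 rose, and 3 fell after the shift to a common median. FXR, the receptor for bile acids encoded by Nr1h4, fell by 1.16 ± 0.20 in transcript level, while Nr0b2, which FXR is known to switch on, went from 5.79 to 7.79 in vehicle to 8.27 to 9.79 in ANIT rats. Abcc3 (adjusted p = 0.0625) and Cyp7a1 (0.128) lost their calls without the 3 narrowest vehicle arrays, and Abcc3 (adjusted p = 0.172) and Cyp7a1 (0.104) with the beta-actin ratio.

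Among drug metabolism genes, cytochrome P450 and flavin monooxygenase genes fell more often than they rose, while the aryl hydrocarbon receptor list held 3 rises. The shares over all genes were 12.9% higher and 5.31% lower. Of 8 aryl hydrocarbon receptor genes and targets 3 rose, Cyp1a2 by 0.85 ± 0.12 and Nqo1 by 1.60 ± 0.25 beside Cyp1a1, and the other 5 were not called (median of the list 0.02). The dioxin element core, GCGTG, was found for 4 of the 6 genes of this list with a window. It was found for 47.1% of the tested genes with a window and in 29.7% of all windows. Other lists had a larger share, such as ribosome biogenesis with 28 of 30 genes and the ER chaperones with 20 of 25. Of 28 other cytochrome P450 and flavin monooxygenase genes 12 fell and 2 rose, the latter Cyp2c22 (0.93 ± 0.11) and Fmo5 (0.66 ± 0.09). Fmo1, an oxygenase of soft nucleophiles, had values from 8.94 to 9.68 in vehicle and from 6.70 to 8.01 in ANIT rats. Cyp2e1, which oxidises small solvents, fell by 0.58 ± 0.08 and Cyp2c13 by 0.56 ± 0.10, while the male form Cyp2c11 had a value of -0.16 ± 0.20, not called. Near-identical P450 genes may share signal on probe sets, so single members of the subfamilies 2a, 2c and 2d are uncertain. Of 12 CAR and PXR targets Cyp3a9 rose (1.31 ± 0.29) and Cyp3a2 fell (-0.68 ± 0.09). These shares, 8.33% each, lay near those of all genes.

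Antioxidant genes rose in part. Of 34 Nrf2 targets 17 rose and 1 fell, which became 13 and 4 with the control level. The number that rose was 6 without the 3 narrowest vehicle arrays and 2 with the beta-actin ratio. Gsta3, a glutathione transferase, rose by 2.02 ± 0.39, Srxn1, which restores peroxiredoxins, by 0.89 ± 0.21 and the haem oxygenase Hmox1 by 0.77 ± 0.18. Gclc, the catalytic subunit of glutathione synthesis, fell by 0.49 ± 0.12, and its partner Gclm and Nfe2l2, which encodes Nrf2, had values of -0.19 ± 0.14 and -0.28 ± 0.11, not called, Nfe2l2 being called lower with the control level (adjusted p = 0.00173). The antioxidant element TGACNNNGC was found for 10 of the 30 genes of the list with a window. It was found for 15.1% of the tested genes and in 12.1% of all windows. Some other lists had a larger share, such as the hepatocyte plasma carriers with 7 of 16. Srxn1 (adjusted p = 0.176) lost its call without the 3 narrowest vehicle arrays, and Gsta3 (adjusted p = 0.0833), Hmox1 (0.150) and Srxn1 (0.143) with the beta-actin ratio.

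Acute phase and inflammatory genes rose at several steps of the response. Of 30 acute phase proteins 19 rose, and in 17 every ANIT rat exceeded every vehicle rat. Most of the changes were small, with a median of 0.22: the fibrinogen chains Fgb and Fgg rose by 0.41 ± 0.07 and 0.36 ± 0.06. Lbp, which presents bacterial endotoxin, rose by 1.04 ± 0.17 and the glycoprotein Orm1 by 0.95 ± 0.10, and Ahsg, a plasma protein that declines in the acute phase, fell by 0.27 ± 0.07. The number that rose was 11 without the 3 narrowest vehicle arrays and 9 with the beta-actin ratio. Of the signalling genes, Stat3, the factor downstream of interleukin-6, rose by 1.52 ± 0.19 and Bcl3 by 1.77 ± 0.28, while Socs2 fell by 1.18 ± 0.30 and the receptor Il6r had a value of 0.30 ± 0.17, not called. Of 24 NF-kappaB feedback genes and targets 13 rose and 0 fell, 6 rising with the beta-actin ratio. Icam1, which binds leukocytes, rose by 1.38 ± 0.22. In that list ANIT rats differed: the median level stood 0.08 above the vehicle mean in ANIT rat 2 and 0.70 in ANIT rat 1. Ahsg (adjusted p = 0.163) lost its call with the beta-actin ratio, and Ahsg (adjusted p = 0.115) after the shift to a common median.

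Of 29 chemokines 4 rose and 4 fell, against 12.9% and 5.31% of all genes, and 1 rose with the beta-actin ratio. Cxcl1, which attracts neutrophils, had values of 5.63, 7.44 and 9.26 in vehicle and 9.08, 9.54 and 9.85 in ANIT rats. The ANIT rats were all high, and the vehicle rats were split between low and high, so that the groups overlapped (2.11 ± 0.57, adjusted p = 0.0106). Ccl2, which attracts monocytes, rose by 1.20 ± 0.24, while Cxcl12, a resting-tissue chemokine, fell by 1.02 ± 0.10 and Cxcl13, which attracts B cells, by 0.69 ± 0.15. The cytokine Il6 had a value of 0.38 ± 0.20, not called (adjusted p = 0.0310 with the control level). Tnfrsf12a, the TWEAK receptor, rose by 2.15 ± 0.24 and Ccn2, a matrix signal, by 1.59 ± 0.20; both belong to a list of growth factors, EGF receptor ligands and YAP targets of which 6 of 31 rose, with a median change of -0.07. Cxcl1 (adjusted p = 0.0889) lost its call without the 3 narrowest vehicle arrays, and Ccl2 (adjusted p = 0.0549) and Cxcl1 (0.388) with the beta-actin ratio.

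Lists of markers of other cell types held from 0 to 4 rises each among neutrophil, macrophage, cholangiocyte, lymphocyte and endothelial markers. Over all genes 12.9% rose and 5.31% fell, shares near which some of these small counts lie. Of 12 neutrophil markers 3 rose, S100a8 (1.82 ± 0.38), S100a9 (0.87 ± 0.22) and Il1r2 (0.84 ± 0.16). The list level, in this paragraph the mean over the members in a rat, ran from 4.43 to 4.73 in vehicle and from 4.68 to 4.93 in ANIT rats. The median difference of the members from the vehicle mean overlapped more, from -0.08 to 0.07 in vehicle and from -0.04 to 0.30 in ANIT rats. S100a8 ran from 5.23 to 7.50 in vehicle and from 7.70 to 8.62 in ANIT rats. The other 9 markers were not called. Of 20 monocyte and macrophage markers 4 rose, led by Lgals3 (1.13 ± 0.23), which macrophages share with other cells (list level 7.05 to 7.34 in vehicle and 7.26 to 7.50 in ANIT rats). Of 15 cholangiocyte markers 0 rose and 1 fell (list level 5.11 to 5.37 in vehicle and 4.94 to 5.21 in ANIT rats), and Krt19, the defining keratin of bile ducts, lay at 5.36 to 5.65 in vehicle and 5.09 to 5.70 in ANIT rats. Of 17 lymphocyte markers 0 rose and 2 fell (list level 5.26 to 5.41 in vehicle and 5.03 to 5.28 in ANIT rats), and of 12 endothelial markers 1 rose and 2 fell (list level 7.09 to 7.75 in vehicle and 7.16 to 7.48 in ANIT rats). With the control level 6 endothelial markers fell (median -0.28), as did 4 lymphocyte and 2 cholangiocyte markers. With the beta-actin ratio 0 monocyte and macrophage markers and 3 neutrophil markers rose. The number of cholangiocyte markers that fell became 0 without vehicle rat 3, vehicle rat 4, vehicle rat 6, ANIT rat 1 or ANIT rat 3. The number of lymphocyte markers that fell became 1 without vehicle rat 3, vehicle rat 5, vehicle rat 6, ANIT rat 2, ANIT rat 5 or ANIT rat 6. The number of endothelial markers that fell became 1 without vehicle rat 1, vehicle rat 2, vehicle rat 3, vehicle rat 6, ANIT rat 2, ANIT rat 4, ANIT rat 5 or ANIT rat 6. Of 20 stellate cell and fibroblast markers 2 rose and 4 fell: Timp1, an inhibitor of matrix proteases, rose by 1.86 ± 0.24, Lrat, which stores retinol in stellate cells, fell by 1.25 ± 0.17, and Col1a1 had a change of 0.01 ± 0.24, not called. Of 11 hepatocyte markers 2 fell, Cyp2e1 and Ahsg, and 2 rose, Fgb and Tat, an enzyme of tyrosine breakdown (0.74 ± 0.25), and the levels of the list were alike, 12.25 to 12.41 in vehicle and 12.26 to 12.42 in ANIT rats. Tat also lost its call without any 1 of 7 arrays, those of vehicle rats 3, 4, 5 and 6 and ANIT rats 1, 3 and 6, with adjusted p from 0.0528 to 0.123. The part of shifts in cell make-up in the results was not tested. Tat (adjusted p = 0.174) lost its call with the control level, and Tat (adjusted p = 0.556) without the 3 narrowest vehicle arrays, and Lgals3 (adjusted p = 0.108), S100a9 (0.0691) and Tat (0.343) with the beta-actin ratio.

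Cytoskeletal genes rose in part, some tubulins and keratins among them. Of 34 cytoskeleton, keratin and annexin genes 17 rose and 0 fell, 10 rising without the 3 narrowest vehicle arrays and 5 with the beta-actin ratio. Krt8 and Krt18, the keratin pair of hepatocytes, rose by 1.07 ± 0.18 and 1.16 ± 0.13, Tuba4a by 1.51 ± 0.17 and Tubb2a by 1.45 ± 0.22. Actb itself, the gene of the 3'/5' control, rose by 0.61 ± 0.09. Of 26 junction genes 4 rose and 4 fell (15.4% each), where 12.9% of all genes rose and 5.31% fell. With the beta-actin ratio 0 of them rose. Among them, Cdh17 rose by 1.94 ± 0.47, and Gjb1, the main gap junction protein of hepatocytes, fell by 0.41 ± 0.09. Cdh17 (adjusted p = 0.0854) lost its call without the 3 narrowest vehicle arrays, and Cdh17 (adjusted p = 0.362) and Krt8 (0.0620) with the beta-actin ratio.

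Hepatocyte metabolic genes showed more falls than rises in several lists. Of all genes tested, 12.9% rose and 5.31% fell. Of 23 genes of gluconeogenesis and glycogen 9 fell. G6pc1 ran from 9.28 to 10.58 in vehicle and from 7.83 to 9.005 in ANIT rats, Ugp2, which makes UDP-glucose, fell by 0.89 ± 0.13, and Pck1, the other key enzyme of fasting glucose output, had a value of -0.07 ± 0.08, not called. Without ANIT rat 5 or ANIT rat 6 the number that fell was 5, as it was after the shift to a common median. Of 18 genes typical of hepatocytes near the central vein 8 fell and 1 rose, among the falls Glul, which makes glutamine (-0.37 ± 0.09), Oat (-0.79 ± 0.15) and the receptor Nr1i3 (-0.95 ± 0.25). Of 20 genes of hepatocytes near the portal tract 3 fell and 3 rose, and the difference between the zones was not tested. The number of portal genes that fell became 5 without vehicle rat 1 or vehicle rat 5. Of 22 growth hormone responsive genes 8 fell and 1 rose, with Igfals, the carrier subunit of insulin-like growth factor in plasma, at -1.26 ± 0.19. Kynu and Kmo, of tryptophan breakdown, fell by 1.10 ± 0.11 and 1.05 ± 0.15, and Tdo2, which opens that path, rose by 0.67 ± 0.10. Of 18 genes of the circadian clock and its output 3 fell, Tef, Npas2 and Hlf (-1.31 ± 0.13, -1.15 ± 0.22 and -1.03 ± 0.16), and 3 rose, Usp2, Bhlhe40 and Per1 (1.22 ± 0.24, 0.65 ± 0.14 and 0.52 ± 0.12). The rises of the circadian list (16.7%) and of the portal list (15%) lay near the share of all genes. Glul (adjusted p = 0.192) and Usp2 (0.0799) lost their calls with the beta-actin ratio.

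Mitosis and DNA replication genes gave few rises, and small counts of falls that depended on the setting. Of 31 mitosis genes 0 rose and 4 (12.9%) fell, with a median change of -0.22. Of 33 DNA replication genes 1 rose and 3 (9.09%) fell, with a median change of -0.11. Over all genes 12.9% rose and 5.31% fell. With the beta-actin ratio 0 mitosis and 0 replication genes fell. The number of mitosis genes that fell became 1 without vehicle rat 3, vehicle rat 5, vehicle rat 6, ANIT rat 1 or ANIT rat 6 and 2 without vehicle rat 2 or vehicle rat 4 and 8 without vehicle rat 1. The number of replication genes that fell became 5 without vehicle rat 1 or ANIT rat 2. Mki67, the proliferation antigen, ran from 4.87 to 8.09 in vehicle and from 5.67 to 7.38 in ANIT rats and was not called (-0.57 ± 0.44). Vehicle rat 1 alone was low, and without it Mki67 was called lower (adjusted p = 0.0312). Cdkn1a, a p53 target that stops the cycle, rose by 0.85 ± 0.23, the largest change among 17 p53 targets. Of these 17, 5 rose and 3 fell (median -0.02), and 0 rose with the beta-actin ratio. Respiratory chain and ATP synthase genes gave 7 rises among 54, a share near the 12.9% of all genes, and 1 with the control level, 0 with the beta-actin ratio and 20 with array weights. Leaving out 1 array moved that number to between 1 (without ANIT rat 1 or ANIT rat 6) and 17 (without vehicle rat 1), and to 2 without vehicle rat 2, 3 or 4 and 3 without ANIT rat 3. Cdkn1a (adjusted p = 0.135) lost its call without the 3 narrowest vehicle arrays, and Cdkn1a (adjusted p = 0.747) with the beta-actin ratio.

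**Figure D4:**
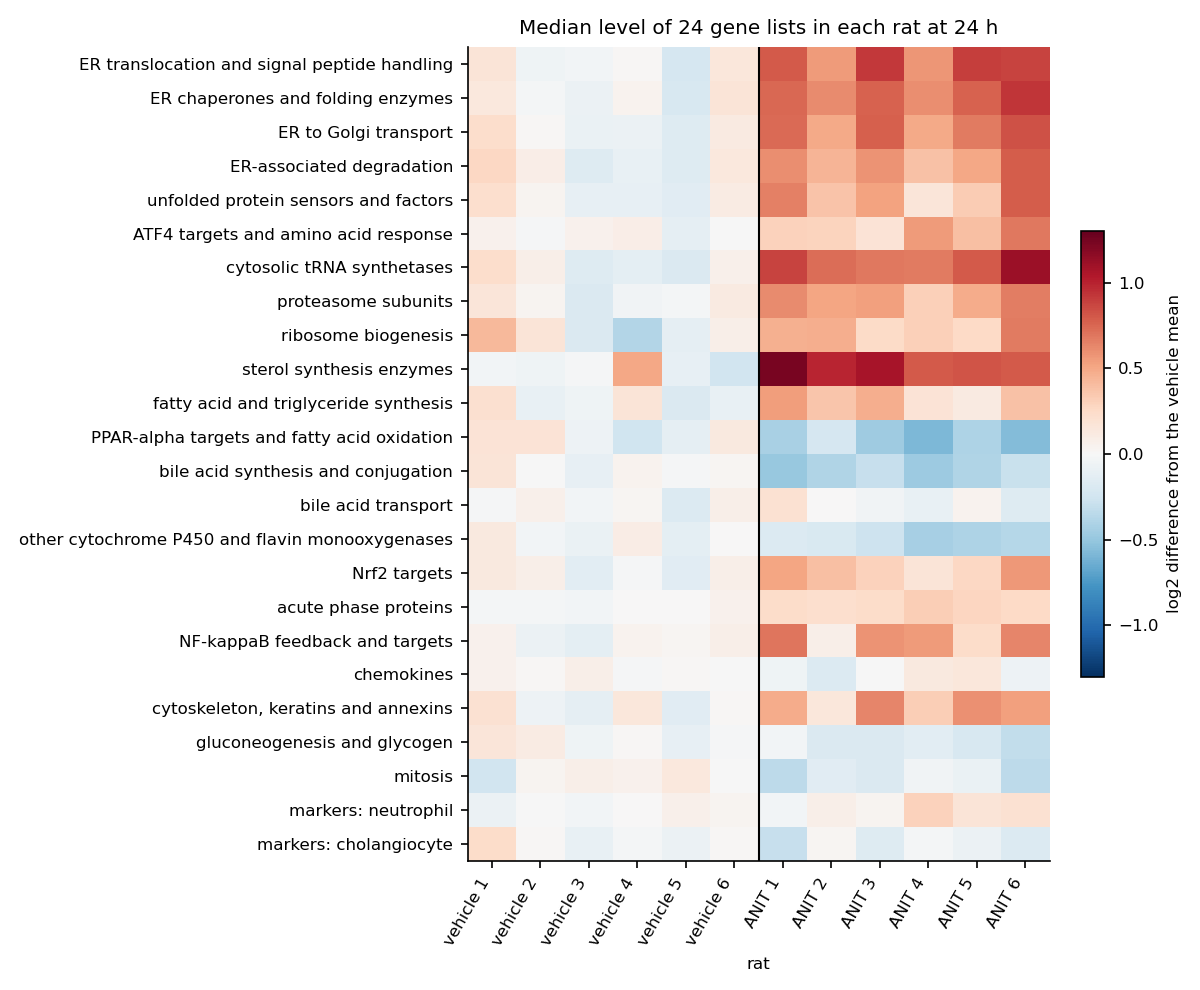
Median level of 24 gene lists (rows) in each of the 12 rats at 24 h (columns), as the log2 difference from the mean of the vehicle rats (colour, blue lower and red higher). The ANIT rats are red in every secretory pathway list, and vehicle rat 1 stands above the other vehicle rats in several lists, as in ribosome biogenesis at 0.42.

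ANIT rats differed most from one another in 6 genes. Fam111a, a protease of DNA replication and viral restriction, had log2 values of 9.87, 10.39, 7.97, 11.23, 11.23 and 3.89 in ANIT rats 1 to 6, and between 4.29 and 6.93 in vehicle rats. In 5 ANIT rats Fam111a lay above every vehicle rat and in ANIT rat 6 below every one, and it rose overall (4.05 ± 0.96, adjusted p = 0.00350). Ugt2b, a glucuronosyltransferase, was 7.42 in ANIT rat 1 and 10.57 to 11.83 in the other ANIT rats, and was not called (-1.001 ± 0.937). RT1-Ba, a class II antigen-presenting chain, ran from 7.42 to 9.32 in vehicle and from 6.31 to 9.74 in ANIT rats. Gpx2, a glutathione peroxidase of epithelia, lay between 4.05 and 4.33 in vehicle rats and ran from 4.47 to 7.69 in ANIT rats, and the GTPase Rnd1 ran from 4.73 to 7.45 there against 4.13 to 4.55. Acox2, the oxidase of bile acid side chains, was spread in both groups, from 6.72 to 9.78 and from 6.05 to 8.56, and was not called (-1.16 ± 0.56). Fam111a (adjusted p = 0.393) lost its call with the beta-actin ratio.

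**Figure D5:**
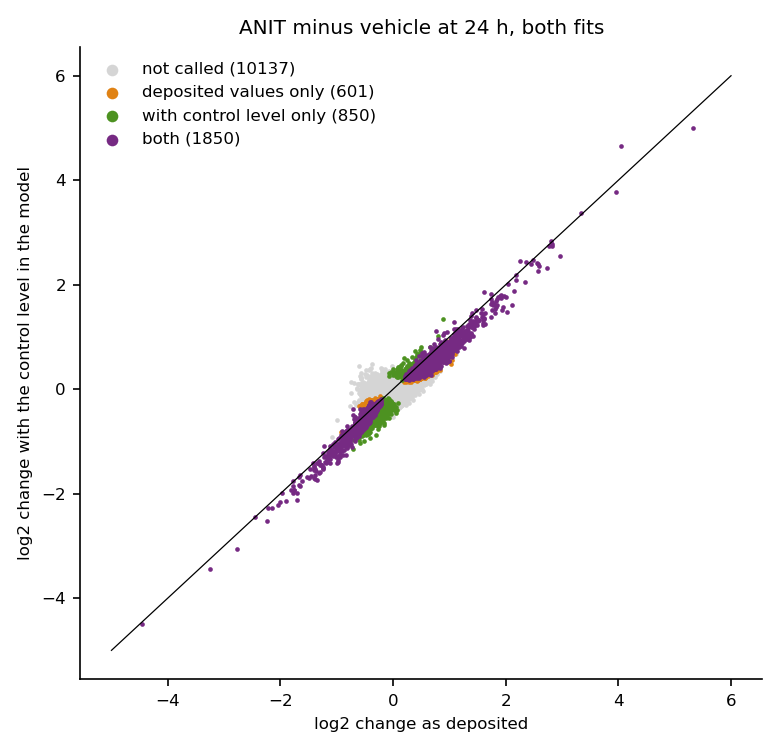
Log2 change of each of the 13438 genes as deposited (x axis) and with the hybridisation control level in the model (y axis), ANIT minus vehicle at 24 h. Purple points, 1850 genes, were called in both fits with the same sign, orange points in the first only (601) and green points in the second only (850). The genes of largest change lie along the diagonal and were called in both fits.

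The 40 leading genes kept their direction and call with the control level, with most rises somewhat smaller and most falls somewhat larger. Lcn2 went from 5.33 to 5.004, Cyp1a1 from 3.34 to 3.38, Amigo3 from 2.97 to 2.55 and Sqle from 2.83 to 2.74. Nrep went from -4.45 to -4.49, Hsd17b2 from -3.25 to -3.45 and Nim1k from -2.78 to -3.06. The arrays were also split by SD into a middle band of 5 arrays (2 vehicle, 3 ANIT) and a wide band of 4 (1 vehicle, 3 ANIT), subsets of the same 12 arrays. Median changes within the middle and wide bands were 0.61 and 0.73 for the chaperones and 0.34 and 0.42 for the proteasome. The narrow band held vehicle arrays alone and gives no comparison.

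The effects at 24 h were set beside those in the rats of 120 h, which have their own vehicle group. A test of the difference between both effects (limma interaction, adjusted p under 0.05) was passed by 1924 genes (14.3%). Of the 2451 genes called at 24 h, 1430 passed it, and in 1391 of those the effect was smaller at 120 h. Genes picked for their 24 h effect, which also enters this test, tend by that choice to show a smaller effect at 120 h. This holds for the 6 genes that follow too. A2m changed by 3.95 ± 0.32 at 24 h and -0.26 at 120 h, Cyp1a1 by 3.34 ± 0.22 and 0.38, and Lcn2 by 5.33 ± 0.36 and 1.72, the last still called at 120 h (adjusted p = 0.0106). Of the falls, Nrep changed by -4.45 ± 0.31 and -0.23, Hsd17b2 by -3.25 ± 0.30 and -0.95, and Nim1k by -2.78 ± 0.33 and -0.51. The interaction was called for all 6, with adjusted p from 7.66e-07 for Cyp1a1 to 0.00194 for Nim1k. Genes called in the same direction at both times numbered 12 higher and 61 lower, and 42 were called in opposite directions, of 272 called at 120 h.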

How the data were processed

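Liver RNA of each rat was hybridised to 1 array. The authors deposited log2 expression values (31139 probe sets, 24 columns), for which the submitters' processing notes name RMA, which summarises the probes of a probe set, and Partek. For both, versions were not stated in the sources available here. Array SDs differ, so the columns do not share 1 distribution, and array signal carries no read depth. Gene names came from the platform table and were looked up through Entrez identifiers, which changed 0 of them. Each of 13438 genes was read from its single-gene probe set of highest mean.

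A model of the 4 groups was fitted with limma 3.58.1 in R 4.3.3, all 24 arrays sharing 1 spread per gene. Calls needed an adjusted p under 0.05 (Benjamini-Hochberg, all 13438 genes) and no minimum fold. A second fit added the mean of the spiked hybridisation controls. Array measures had exact two-sided permutation tests. Lists have counts and medians only. The members and lists were chosen with earlier results of these data known.

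Named genes were the 20 largest rises and 20 largest falls among called genes without overlap between groups, list members of smallest p or of defining role, and the 6 genes of largest SD among ANIT rats. Alternatives covered covariates, arrays left out, normalization, probe sets and variance models. The fit was tested on simulated data. Figures used Python 3.11.15 and matplotlib 3.10.9, and promoter windows came from RefSeq (GRCr8).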

Additional observations from a re-analysis of the deposited data

Results flagged for a closer look

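In 30 of 422 groups of 6 rats, counting each measure or gene named in the text in each treatment, 1 rat stood apart from the other 5, and chance does this in about 1 in 20 groups. In ANIT rat 2 these were Abcc3 at 9.63 (8.41 to 8.84), Cpt1a at 11.34 (10.79 to 10.99), Ehhadh at 10.25 (9.37 to 9.56), Hlf at 9.15 (8.14 to 8.44), Hsd17b2 at 7.91 (5.87 to 6.36), Lbp at 10.17 (10.66 to 10.86), Lcn2 at 9.96 (11.47 to 11.85), Nr1h4 at 8.01 (6.91 to 7.15) and Wfdc21 at 8.50 (9.53 to 9.85), as log2 values with the range of the other 5 ANIT rats in brackets. Amigo3 at 9.16 (8.07 to 8.48), Fbl at 8.87 (8.33 to 8.52), Hspa5 at 12.17 (11.68 to 11.86), Mbl2 at 10.00 (10.46 to 10.73) and the log2 3'/5' ratio of beta-actin at 2.98 (3.11 to 3.18) stood apart in ANIT rat 6, Sds at 6.87 (5.59 to 6.05) and Ugt2b at 7.42 (10.57 to 11.83) in ANIT rat 1, Cyp2c22 at 11.92 (12.16 to 12.30) in ANIT rat 4 and Col1a1 at 8.74 (6.87 to 7.54) in ANIT rat 5. Among vehicle rats, Mki67 at 4.87 (7.21 to 8.09) and Slc7a1 at 6.27 (7.24 to 7.51) stood apart in vehicle rat 1, Cpt1a at 11.49 (12.09 to 12.20), Cyp2c22 at 11.84 (11.08 to 11.24), Idi1 at 8.31 (6.37 to 6.90) and Timp3 at 6.43 (7.02 to 7.33) in rat 4, Asns at 5.22 (5.82 to 6.06), Kmo at 9.03 (9.70 to 9.89) and Nrep at 9.32 (10.38 to 10.76) in rat 5, Hnrnpa3 at 11.56 (11.33 to 11.41) in rat 2 and Thbd at 7.08 (7.80 to 7.97) and Ugt2b at 10.74 (11.83 to 11.99) in rat 3. No array was left out for these values.

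The effect of ANIT at 24 h differed from that at 120 h for the 6 genes tested by name (limma interaction). These 6 were picked for the size of their change at 24 h, which this test contains. The effect at 24 h minus that at 120 h was 3.60 for Lcn2, 4.21 for A2m and 2.96 for Cyp1a1, with adjusted p of 3.75e-05, 1.40e-06 and 7.66e-07. For Nrep, Hsd17b2 and Nim1k it was -4.22, -2.30 and -2.27, with adjusted p of 7.66e-07, 5.89e-04 and 0.00194.

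Probe sets that name several genes or have no listed gene stayed outside the comparison of genes. Of 11980 of them, 1018 passed the same test when adjusted over all probe sets that are no controls, 571 higher and 447 lower. They carry no gene name here.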

How the results depend on the processing

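The count of called genes depended on how array quality was treated. The total of 2451 was 907 with the beta-actin 3'/5' ratio in the model (462 higher, 445 lower) and 1248 without the 3 vehicle arrays of smallest SD (645 higher). With the control level and that ratio together 884 genes were higher. The 713 lower genes became 1407 with the control level, 1420 with the array SD, 1088 after quantile normalization and 434 after the shift to a common median. Leaving out 1 array gave 1829 to 3534 called genes, 1268 to 2528 higher and 561 to 1006 lower, the highest totals without vehicle rat 1. Of the 2451 genes, 847 were called with the same sign with the beta-actin ratio, which does not overlap between the groups, and 2450 had the same direction. The other alternatives, which were the fit to the 24 h arrays alone, the mean of probe sets, brighter genes only, trend with robust variance and array weights, moved the counts of all called genes by 1.5 times or less. They did move counts of single lists: array weights took the rises of the respiratory chain and ATP synthase from 7 to 20 and of the cytosolic ribosomal proteins from 13 to 25, and brighter genes only took those of the neutrophil, circadian and coagulation lists from 3 to 1 each, with fewer genes tested. The count of genes whose effect differed between times was 1924, and 1748 with the control level.

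Of 4898 values of the 205 named genes under these settings, 4778 kept their direction and their side of the threshold, 77 lost a call and 12 gained one. The other 31 turned sign, each in a gene that was not called. With the control level Cyp2c11 was 0.0193, Ebp -0.0356, Mki67 0.22 and Pck1 0.000125, and with the array SD Ebp was -0.0133 and Mki67 0.18. With the beta-actin ratio Cyp2c11 was 0.27, Ebp -0.0611, Pck1 0.0183, RT1-Ba 0.48 and Ugt2b 0.64. With both covariates Cyp2c11 was 0.30, Ebp -0.0940, Mki67 0.12, Pck1 0.0342, RT1-Ba 0.39 and Ugt2b 0.69. Without the 3 narrowest arrays Col1a1 was -0.17, Mki67 0.12 and Xbp1 -0.0379. Quantile normalization gave Col1a1 -0.11 and the common median Pck1 0.00557. Leaving out 1 array, Col1a1 ran from -0.26 to 0.12 and RT1-Ba from -0.39 to 0.30. The cause of these shifts was not tested.

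The number of arrays limits what can be seen. Simulated data had the real spread of each gene, independent normal noise, few changed genes and no shifts common to an array. In them changes of 0.5 were called in 45% of the changed genes and changes of 1 in 94%. The real arrays differ in such shifts and gave many more calls, so these rates need not hold for them. Quantile normalization left 15 of the 17 lists whose groups did not overlap still apart. No paired analysis was possible because each rat has its own identifier and no label ties a vehicle rat to an ANIT rat.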

Other observations

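Genes that answer early to injury rose at 24 h in part. Of 31 immediate early genes 9 rose (2 with the beta-actin ratio), against 12.9% of all genes tested, among them Jun, a partner in the AP-1 factor (1.04 ± 0.23) and Gadd45b (1.496 ± 0.245), a stress gene. Of 31 growth factor, EGF receptor ligand and YAP target genes 6 rose, Tnfrsf12a and Ccn2 with the largest changes. Igfbp2, which binds insulin-like growth factors, fell by 1.70 ± 0.39, from 6.90 to 8.51 in vehicle to 4.91 to 7.20 in ANIT rats. Matrix genes gave 4 rises among 30, with the protease inhibitor Timp3 at 1.15 ± 0.18 and the protease Adamts1 at 1.06 ± 0.12 beside Timp1, a share near that of all genes. Jun (adjusted p = 0.160) lost its call with the beta-actin ratio.

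Blood clotting, complement and amino acid genes changed in part, against 12.9% of all genes higher and 5.31% lower. Of 24 coagulation and fibrinolysis genes 3 rose, among them Thbd (0.98 ± 0.17) and Procr (0.97 ± 0.23), receptors that turn thrombin toward protein C, a share near that of all genes. Of 26 complement genes 7 rose, among them C9 of the membrane attack complex (0.63 ± 0.09), while Mbl2, a mannose-binding lectin, fell by 0.95 ± 0.12. Of 37 genes of the urea cycle and amino acid breakdown 9 fell and 5 rose, with Sds, which breaks down serine, at -1.38 ± 0.32 and Asl of the urea cycle at -0.65 ± 0.17. With the control level 14 of the amino acid genes fell. With the beta-actin ratio the rises were 2 for complement, and the falls 5 for amino acid breakdown. Asl (adjusted p = 0.421) and Sds (0.0670) lost their calls with the beta-actin ratio.

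Other lists gave few calls, where 12.9% of all genes rose and 5.31% fell. Of 16 apolipoprotein and lipoprotein assembly genes 2 fell and 0 rose, with a median change of -0.09. Of 24 lysosome and autophagy genes 3 rose and 3 fell (median 0.03). With the control level 6 of these genes fell, and with the beta-actin ratio 0 rose. Of 12 pancreatic acinar markers 1 rose and 1 fell, and of 8 adipocyte and mesothelium markers 1 rose.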
